A study of Saccharomyces cerevisiae with 6 samples.

Results

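Reductive iron uptake is a route by which the budding yeast Saccharomyces cerevisiae brings ferric iron through its plasma membrane. The 10 genes described here encode ferric reductases (FRE1, FRE2, FRE3, FRE4, FRE5 and FRE6), the ferroxidase FET3, the iron permease FTR1, the low-affinity iron transporter FET4 and the copper transporter CTR1. They were matched by gene symbol to the array, 1 spot each, out of 5365 genes with a named spot. Of the 10 genes, 7 had a value on all 3 hybridizations and entered the main test (FRE1, FRE3, FRE6, FET3, FTR1, FET4 and CTR1). The other 3 had a value on only 2 of them (FRE2, FRE4 and FRE5). In the whole series 3642 genes had all 3 values.

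Two-colour cDNA arrays compared polyadenylated RNA of strain S288C after exposure to chloroacetaldehyde, a reactive aldehyde known to modify DNA and RNA bases and thiols, with RNA of cells taken before the exposure. No other allele or treatment is named for either culture. Cultures growing exponentially in YPD, a rich glucose medium, at 25 °C received 25 ppm of the compound at an optical density of 1 and were kept with it for 2 h. There were 3 hybridizations of independent biological samples, the exposed RNA always in Cy5, with a high-power and a low-power laser scan of each. Effects of the exposure, of the dye and of the added 2 h of growth cannot be told apart. The arrays measured RNA of whole cultures, so fewer cells using a gene and less RNA per cell cannot be told apart.

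In the textbook pathway, surface reductases of the FRE family turn ferric into ferrous iron, which the multicopper oxidase Fet3 oxidizes again as it hands the iron to the permease Ftr1 in the same complex. Fet3 needs copper, so the copper transporter Ctr1 is part of the route, and Fet4 takes up ferrous iron with low affinity, without that complex. The transcription factor Aft1 turns on many of these genes when iron is scarce, and Mac1 turns on CTR1 and FRE1 when copper is scarce.

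Values are the authors' deposited log ratios of exposed over before, read as log2. Neither base nor direction is given in the sources used here: exposed over before is the likely direction because channel 1 is the exposed sample, and every sign would turn if the ratios ran the other way. The array values carry no level of RNA, so differences can be compared between genes and levels cannot, and the labelled cell type could not be checked against levels of marker genes. Markers of a cells and of meiotic cells had no gene with values on all 3 hybridizations (0 of 5 on either list). Of the 4 markers of alpha cells, 3 were tested and 0 passed in limma with Benjamini-Hochberg adjustment. Before adjustment, 2 of them had a limma p under 0.05, where 6.15% of all tested genes did. The means were -1.10 for the agglutinin gene SAG1 (adjusted p = 0.212), -0.72 for the pheromone receptor gene STE3 and 0.30 for the pheromone gene MF(ALPHA)2.

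None of the 7 tested genes passed an adjusted p of 0.05 in limma's test of the mean against 0 (0 of 7), where 0.0549% of all tested genes were called, 0.0275% higher and 0.0275% lower. Before adjustment 1 gene, FRE3, had a p under 0.05, where 6.15% of all tested genes did. Their adjusted p ran from 0.565 to 0.998. The median of the 7 means was -0.19 on the log2 scale, beside -0.04 over all tested genes, and 4 of the 7 means were negative, where 55.2% of all tested genes had a negative mean. FRE3 was lower on all 3 hybridizations, as were 16.1% of all tested genes, and 0 of the 7 were higher on all 3, where 11.5% of all tested genes were. With 3 hybridizations, the smallest p that an exact two-sided sign-flip test of 1 gene allows is 0.25.

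**Figure D1:**
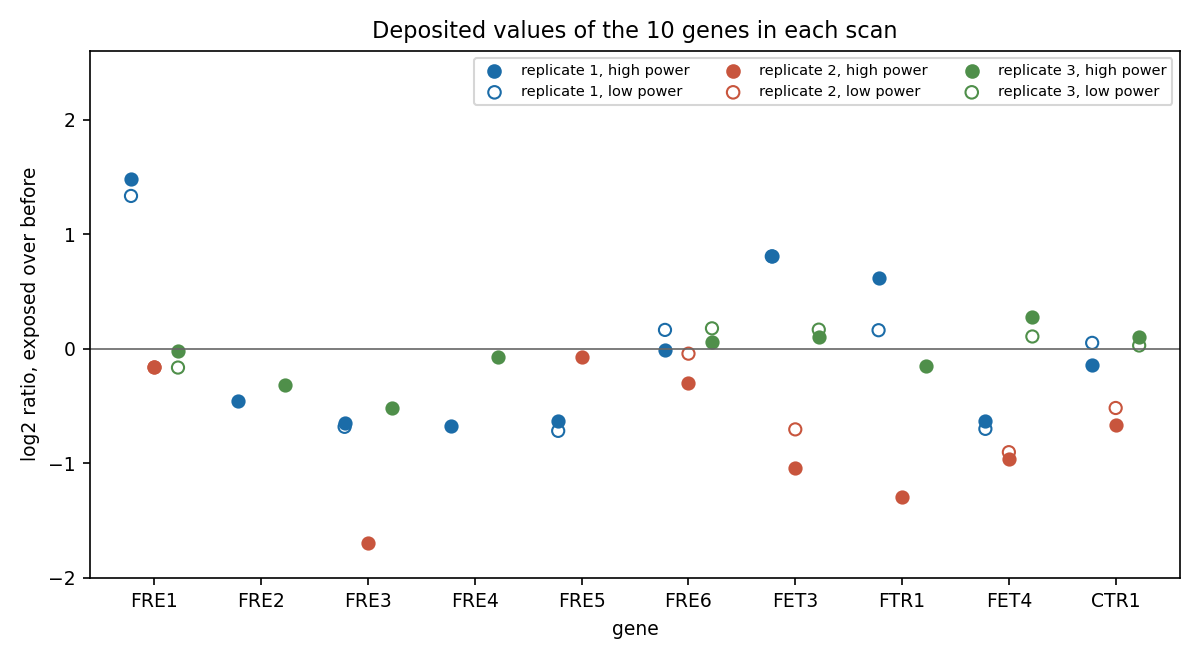
Log2 ratio of exposed over before (vertical axis) of the 10 genes (horizontal axis) in each scan; colours are the 3 hybridizations, filled points the high-power scan and open points the low-power scan. FRE1 and FET3 stand highest on replicate 1, while FRE3, FTR1, FET4 and FET3 reach their lowest values on replicate 2.

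FRE1 (YLR214W) encodes the main surface reductase of ferric and cupric ions. Its log2 ratios on replicates 1, 2 and 3 were 1.41, -0.16 and -0.09. Replicate 1 stood alone, at percentile 99.1 of all genes measured on that hybridization, while replicates 2 and 3 lay at percentiles 36.2 and 44.6. The mean was 0.38 ± 0.89 (SD, n = 3), with a 95% interval from -0.36 to 1.13 (adjusted p = 0.901, limma). Without replicate 1 it was -0.13. Both scans gave the high value, 1.48 at high power and 1.33 at low power.

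FRE2 (YKL220C) encodes the other well-studied surface reductase. It had values of -0.45 on replicate 1 and -0.32 on replicate 3, both from the high-power scan alone, and none on replicate 2. The values lay at percentiles 20.2 and 24.4 of their hybridizations. Both were negative and close to each other, but a gene with 2 values was left out of the main test.

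FRE3 (YOR381W) and FRE4 (YNR060W) encode reductases that act on iron bound to siderophores, the iron chelators that microbes secrete. FRE3 had log2 ratios of -0.67, -1.70 and -0.52, and was the single tested gene of the 7 with the same sign on each hybridization. It lay at percentiles 9.93, 0.986 and 12.1, in the lower part of every hybridization. Its mean of -0.96 ± 0.64 (SD, n = 3), a ratio of 1.95-fold below 1, had a 95% interval from -1.60 to -0.32 before adjustment and stood at percentile 0.522 of all tested genes. It did not pass over all genes (unadjusted p = 0.00800, adjusted p = 0.565, limma). Without replicate 2, whose value came from the high-power scan alone, the mean was -0.59. FRE4 had -0.67 on replicate 1 and -0.07 on replicate 3, at percentiles 9.69 and 46.5, and no value on replicate 2.

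FRE5 (YOR384W) encodes a putative reductase assigned to mitochondria, and FRE6 (YLL051C) a reductase of the vacuole, which releases stored iron. FRE5 had -0.68 on replicate 1 and -0.07 on replicate 2. FRE6 stayed close to 0 throughout, with 0.08, -0.17 and 0.12 and a mean of 0.0069 ± 0.16 (SD, n = 3). Its SD was the smallest of the 7, at percentile 12.3 of all tested genes. The unadjusted 95% interval ran from -0.50 to 0.51, so a mean change within that range is not excluded. The FRE genes are related in sequence, and a cDNA spot of one can bind RNA of a close copy; how far this moved their values was not tested.

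FET3 (YMR058W), the ferroxidase gene, differed in sign between hybridizations. Its log2 ratios were 0.81, -0.87 and 0.13, which placed it at percentile 92.7 on replicate 1, 5.68 on replicate 2 and 66.4 on replicate 3. The mean was 0.02 ± 0.85 (SD, n = 3), with a 95% interval from -0.70 to 0.75 (adjusted p = 0.995, limma). The scans of each array gave the same sign, with 0.81 and 0.81 on replicate 1 and -1.04 and -0.70 on replicate 2, at high and low power.

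FTR1 (YER145C), the permease gene, had 0.39, -1.30 and -0.15. The mean was -0.35 ± 0.86 (SD, n = 3), with a 95% interval from -1.09 to 0.38 (adjusted p = 0.917, limma), and without replicate 2 it was 0.12. FET3 and FTR1, whose products form 1 complex, kept a similar distance on each array. FET3 minus FTR1 was 0.42, 0.43 and 0.28, a mean difference of 0.38 ± 0.08, although each gene alone spanned 1.68 and 1.69 between its highest and lowest hybridization. From the high-power scan alone, the one scan that both genes have on every array, it was 0.19, 0.26 and 0.25, a mean of 0.24 ± 0.04. This pair was set side by side after its values were seen, and the difference was not tested. Replicates 2 and 3 of FTR1 rest on the high-power scan, and its scans on replicate 1 differed by 0.46, the widest gap among the 18 hybridization values of the 10 genes that had both scans. The median gap was 0.13 for these values and 0.12 over all named spots.

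FET4 (YMR319C) encodes the low-affinity transporter of ferrous iron, which also carries copper and zinc. Its log2 ratios were -0.67, -0.93 and 0.19, low on replicates 1 and 2 (percentiles 9.90 and 4.77) and higher on replicate 3 (percentile 70.8). The mean was -0.47 ± 0.59 (SD, n = 3), with a 95% interval from -1.09 to 0.15 (adjusted p = 0.855, limma). On replicate 1 FET4 and FET3 lay on opposite sides of 0, and on replicate 2 they lay close together, at -0.93 and -0.87.

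CTR1 (YPR124W), the high-affinity copper transporter gene, had -0.05, -0.59 and 0.06. The mean was -0.19 ± 0.35 (SD, n = 3), with a 95% interval from -0.73 to 0.35 (adjusted p = 0.929, limma). Replicate 2 stood apart at percentile 12.6, and without it the mean was 0.0083. The symbol CTR1 is also an older name of the choline transporter gene HNM1; the spot used here is annotated to the copper transporter.

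**Figure D2:**
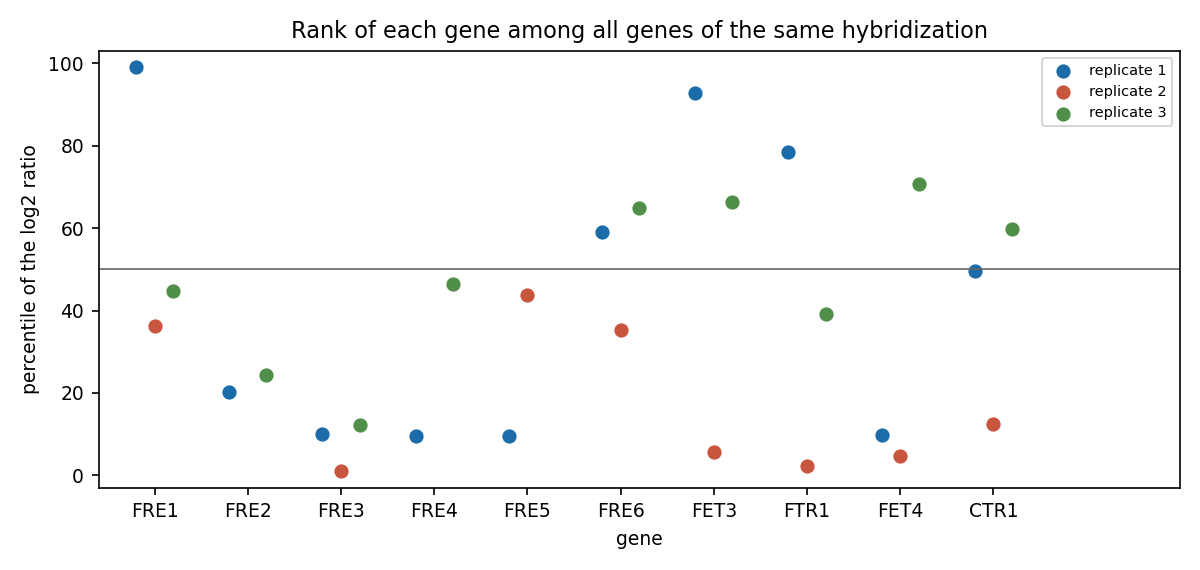
Percentile of each gene's log2 ratio (vertical axis) among all genes with a value on the same hybridization, with the line at 50; colours are the replicates. FRE1 reaches percentile 99.1 on replicate 1, and FRE3, FTR1, FET4 and FET3 lie between percentiles 0.986 and 5.68 on replicate 2.

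Each of the 7 genes had its lowest ratio on replicate 2 (7 of 7), where 29% of all tested genes did. On that hybridization all 8 of the genes with a value were negative, where 50.5% of all tested genes were. FRE5 was among them, but at -0.07 and percentile 43.8 it lay near the middle, above its -0.68 on replicate 1. FRE2 and FRE4 had no value on replicate 2. The median of the 7 was -0.87, beside -0.01 over all tested genes. On replicate 1 their median was 0.08 (all tested genes -0.09) and on replicate 3 it was 0.06 (all tested genes -0.02). FRE1, FET3 and FTR1 were highest on replicate 1, and FRE3, FRE6, FET4 and CTR1 were highest on replicate 3. The pattern was noticed in these values and was given no test. The count was also 7 of 7 with the high-power scan alone and after centring, scaling or removal of position medians. It was 5 of 5 over spots with both scans and 4 of 5 with the low-power scan alone. All of these settings reuse the same 3 arrays, so they give no independent check of the pattern. The labels name no difference in treatment between the replicates. Replicate 2 had the fewest measured genes, 3854, beside 5335 on replicate 1 and 4869 on replicate 3, and the part of signal or coverage in the low values was not tested.

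Among the 7 genes, the spread between hybridizations was widest for FRE1, FTR1 and FET3 and narrowest for FRE6. The SD was 0.89 for FRE1, 0.86 for FTR1 and 0.85 for FET3, at percentiles 94.0, 93.3 and 92.9 of all tested genes. FRE3 and FET4 followed at percentiles 82.3 and 77.6, CTR1 lay at 44.7 and FRE6 at 12.3. The median SD of the 7 was 0.64, beside 0.38 over all tested genes. Half-widths of their unadjusted 95% intervals ran from 0.51 to 0.74. They give no detection limit for calls, which used the adjusted p. FRE3, whose mean of -0.96 lay beyond its half-width of 0.64, did not pass (adjusted p = 0.565, limma). In order of their means the genes ran FRE1, FET3, FRE6, CTR1, FTR1, FET4 and FRE3, and neighbours in that order differed by less than the half-width of either interval. FRE1 and FRE3, at the ends, differed on every array: FRE1 minus FRE3 was 2.07, 1.54 and 0.42. That pair was chosen for its difference, so it carries no test.

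**Figure D3:**
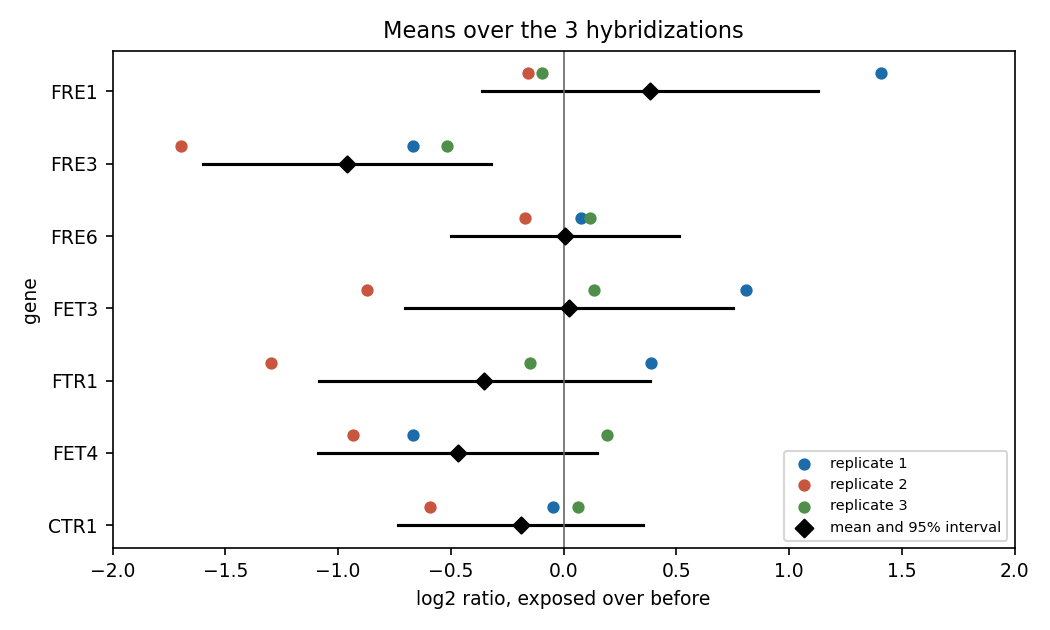
Mean log2 ratio over the 3 hybridizations (diamond) with limma's unadjusted 95% interval (line) for the 7 tested genes, and the 3 single values above each line. The interval of FRE3, from -1.60 to -0.32, lies below 0; those of the other 6 genes span 0.

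Relatives of the uptake complex at the vacuole and the other reductases were counted from a list of 6 genes: FET5 and FTH1, the vacuolar counterparts of FET3 and FTR1, FRE7, FRE8, and the copper delivery genes CCC2 and ATX1. Of these, 4 were tested, 0 passed in either direction (limma; 0 also at an unadjusted p under 0.05), and the list median was -0.11. FRE7 (YOL152W), a reductase gene known to respond to copper shortage, had the highest mean, 0.25 ± 1.30, from log2 ratios of 1.37, -1.17 and 0.55. Like FRE1, it was high on replicate 1 and lowest on replicate 2. FRE8 (YLR047C), a reductase-related gene, had the lowest mean, -0.49 ± 0.33, and was negative on each array (-0.88, -0.33 and -0.28). FET5 had -0.41, 0.19 and 0.28, and FTH1 had -0.46, -0.17 and -0.06. FET3 minus FET5 was 1.22, -1.06 and -0.15, and FTR1 minus FTH1 was 0.85, -1.13 and -0.09. The surface genes were thus above their vacuolar counterparts on replicate 1 and below them on replicates 2 and 3, with mean differences of 0.0051 ± 1.15 and -0.12 ± 0.99, smaller than the spread.

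Siderophore uptake and cell wall retention genes, the other iron uptake route, were all measured on 3 hybridizations. Of the 7, 0 passed in either direction in limma, while 5 had an unadjusted p under 0.05, where 6.15% of all tested genes did. This list was chosen with earlier results of these data known. The list median was -1.31, and each gene had its lowest ratio on replicate 2 (7 of 7, where 29% of all tested genes did). Their medians on the hybridizations were 0.03, -1.80 and -0.70. ARN1, a siderophore transporter gene, had the highest mean (0.54 ± 0.68) and FIT1, a cell wall mannoprotein gene, the lowest (-2.03 ± 2.96, with -5.42 on replicate 2). In gene order FRE3 and FRE5 flank the mannoprotein genes FIT2 and FIT3, a neighbourhood looked up after the values were seen. FIT2 had 0.39, -3.94 and -1.39, and FIT3 had -0.53, -2.99 and -2.24. On replicate 2 FRE3 at -1.70 lay low beside them, while FRE5 at -0.07 did not.

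**Figure D4:**
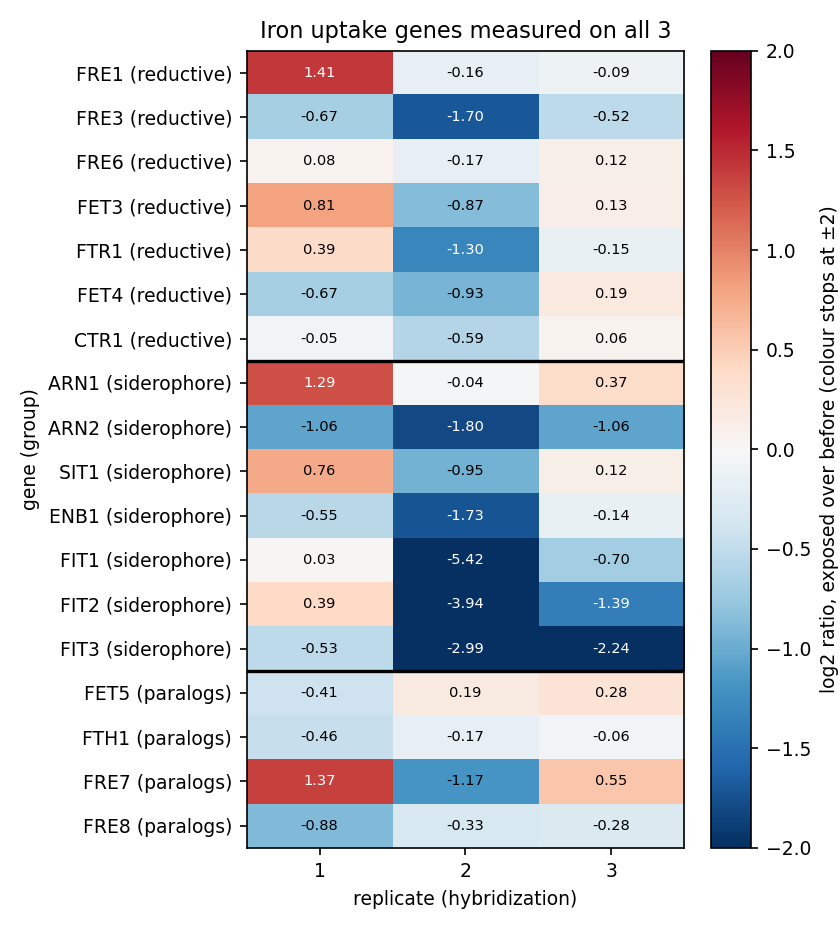
Log2 ratios of exposed over before by replicate (columns) for genes measured on all 3 hybridizations (rows): the 7 reductive uptake genes, the 7 siderophore genes and 4 related genes, with colour limits at -2 and 2 and the value in each cell. Replicate 2 is the lowest column for each of the 7 reductive and 7 siderophore genes, and for FRE7 among the other 4.

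Regulators and further target genes gave no call. Of 9 iron regulators, 8 had a named spot and were tested, with a median of 0.04. The regulator without a named spot was AFT1, so it was not tested. BOL2, whose product helps to inhibit Aft1 when iron is plentiful, was highest (0.41 ± 0.37), and FRA1, which acts with it, was lowest (-0.31 ± 0.54). Of 12 other Aft targets, 6 were tested, with a median of 0.26, from SMF3, a vacuolar metal transporter gene, at 0.47 ± 0.45 to COT1, a vacuolar zinc and cobalt transporter gene, at -0.21 ± 0.47. Of 12 copper genes, 11 were tested, with a median of -0.10 and 6 at their lowest on replicate 2. The superoxide dismutase gene SOD1 was highest there (0.49 ± 0.26) and MAC1, the copper-sensing activator of CTR1 and FRE1, lowest (-0.48 ± 0.76).

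Transporters of other divalent metals had 5 of 9 genes tested and a median of 0.09, from ZRC1 (0.26 ± 0.10) to ZRT2 (-0.19 ± 0.43), genes of vacuolar and low-affinity plasma membrane zinc transport. Vacuolar and mitochondrial iron genes had 9 of 9 tested and a median of 0.01. The frataxin gene YFH1, for iron use in mitochondria, was lowest there at -0.27 ± 0.12, and SMF3 was again highest. Hypoxic genes were listed because the hypoxic repressor Rox1 also represses FET4; 6 of 11 were tested, with a median of 0.03, from the fatty acid desaturase gene OLE1 (0.61 ± 0.87) to the ADP/ATP carrier gene AAC3 (-0.67 ± 0.59). Over all 8 lists, 50 of 67 different genes were tested, and 0 passed in limma at an adjusted p under 0.05, 6 at an unadjusted p under 0.05. Over all tested genes 6.15% had an unadjusted p under 0.05. Of the 50, 25 had a positive and 25 a negative mean, where 55.2% of all tested genes had a negative one. Of these genes 22 had their lowest ratio on replicate 2; without the 7 siderophore genes it was 15 of 43, or 34.9%, where 29% of all tested genes did.

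The genes most like each member were found by the root mean square difference of log2 ratios over the 3 hybridizations, among all tested genes. With 3642 genes and 3 values each, close matches are common: the median gene had its nearest gene at 0.04. FET3 was nearest to SIT1, a siderophore transporter gene, at 0.05; SIT1 had 0.76, -0.95 and 0.12. FRE1 was nearest to SMX2 (0.05), FTR1 to ERG3 (0.13), FET4 to HFL1 (0.08), CTR1 to THP3 (0.02), FRE6 to PTC5 (0.03) and FRE3 to ECL1 (0.16). Among the 7 themselves FET3 and FTR1 were nearest to each other, at 0.38, as were CTR1 and FRE6, at 0.25; many other genes lay closer to each, with FTR1 ranked 86 from FET3 and FRE6 ranked 287 from CTR1.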

How the data were processed

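The authors deposited 1 log2 ratio per spot and scan (base read as 2); per the labels' descriptions, LOWESS normalization used the spots whose flag was 0. Scanner, background correction and signal intensity are not stated in the labels, so how far spots lay above background cannot be given. LOWESS would hide a shift shared by most transcripts. Of 6912 spots, 5513 have a gene name in the platform annotation, and symbols were updated through the R64 gene table, which was used for names and gene order only. The table holds values from -5.42 to 3.67.

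Within each hybridization both scans were averaged per spot, since a rescan is not a replicate, then spots of a gene. The means of the 3642 genes with 3 values were compared with 0 in limma 3.58.1 under R 4.3.3 (fit of the mean, eBayes, two-sided, Benjamini-Hochberg over all 3642, threshold 0.05); intervals are limma's, unadjusted. The fit was run on simulated data with independent noise, which holds no shift shared by genes of a hybridization such as replicate 2. The labels do not state whether each hybridization had its own culture for the earlier RNA. Precision is limited by the number of arrays.

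The 10 genes and the context lists were chosen with earlier results of these data known. Named beyond the 10 were the highest and lowest mean of each list and the nearest gene to each member; other names are said to be chosen after their values were seen, or are list members given to complete a group. Alternatives were either scan, spots measured by both, genes measured on 2 or more hybridizations, centring, scaling, removal of the median of each run of 216 spots, robust moderation and each replicate left out.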

Additional observations from a re-analysis of the deposited data

How the results depend on the processing

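Under all 11 alternatives 0 of the 5 to 10 iron uptake genes then tested were called, and the smallest adjusted p of a gene (limma) was 0.194 over the 10 that recompute means and 0.559 with robust moderation. The count over all genes was 2, against 4 over spots with both scans, 1 with position medians removed and 0 to 12 with a replicate left out, where 967 genes were tested in the first of these. The median of the member means ran from -0.37 to 0.10 with a replicate left out. Of 66 recomputed means, 11 changed sign, none of them a called value. FRE6 became -0.085 and FET3 -0.042 with the high-power scan alone, and -0.026 and -0.014 with position medians removed. With a replicate left out, FRE1 ran from -0.13 to 0.66, FRE6 from -0.048 to 0.096, FET3 from -0.37 to 0.47, FTR1 from -0.72 to 0.12 and CTR1 from -0.32 to 0.0083. FRE3, from -1.18 to -0.59, and FET4, from -0.80 to -0.24, kept their sign. FRE3 and FTR1 had no low-power value on replicates 2 and 3, so they dropped out of the settings that need it. Over genes on at least 2 hybridizations FRE2, FRE4 and FRE5 had means of -0.39, -0.37 and -0.37, each with an adjusted p of 0.977 (limma). Each ratio sets exposed against earlier RNA on the same array, so the test of the mean against 0 compares them within arrays. No further pairing was possible because the 3 hybridizations form a single group of ratios.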
